A study of Saccharomyces cerevisiae with 11 samples.

Results

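The comparison described here is between the poly(A)-enriched mRNA of 2 groups of Saccharomyces cerevisiae cultures, with 3 ΔES7S libraries (replicates 1 to 3) set against 2 WT libraries (replicates 2 and 3). In both groups the genomic ribosomal DNA is depleted and all rRNA comes from a plasmid, so the control is itself a strain that lives on plasmid-borne rRNA. The WT plasmid carries the wild-type rRNA sequence, and the ΔES7S plasmid carries an rRNA without expansion segment ES7S. Cells of both groups were grown in YPD, a rich glucose medium, and snap-frozen. The series holds 11 libraries analysed here, of which these 5 are mRNA and the other 6 are ribosome footprints of the same groups. All genes were members: 5750 genes had a count in at least 1 mRNA library, 5611 of them passed the filter on low counts and were tested, and 139 did not pass it. The source field of all samples names strain yJD1046, in both groups, while the series design names yJD1045, and this conflict was not settled. Whether the replicates came from separate cultures or isolates is not given in the sources used here, and the p-values measure the spread between these libraries. The deletion could not be checked, since no rRNA gene is counted in the tables.

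Expansion segments are stretches of rRNA that eukaryotic ribosomes carry on the surface of a core shared by all life, and ES7S is one of those of the 18S rRNA in the small subunit. Removing such a segment is a change to the rRNA. A comparison of total mRNA describes how the transcript pool of cells with the ΔES7S rRNA differs from that of WT. Mitochondrial proteins are a large share of what nuclear genes of yeast encode. The mitochondrial genome supplies few proteins, among them core subunits of the respiratory chain. Most proteins of the mitochondrial ribosome, and the tRNA synthetases, translation activators and assembly factors that help to make these subunits, come from the nucleus. The descriptions below go mostly beyond mitochondrial ribosomal proteins and secreted proteins, and those lists are given for reference. TIP1, PHO5, FIT2 and FIT3, described below, are members of the list of secreted and GPI-anchored proteins.

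The mRNA libraries held 17981273 to 57968667 counts, and 5636 genes had a count in every one of them. The WT libraries were closest to each other, with a correlation of log2 CPM (counts scaled to the library total) of 0.989 over 3990 genes, and the ΔES7S libraries correlated with each other at 0.950 to 0.978 (across genes, which are not independent replicates). Between the groups the values ran from 0.9 to 0.972, so these ranges overlapped. ΔES7S replicate 1 correlated at 0.959 and 0.972 with WT replicates 2 and 3, and at 0.950 and 0.964 with ΔES7S replicates 2 and 3. Principal component 1 held 73.6% of the variance. WT replicates 2 and 3 scored -24.5 and -23.6 on it, and ΔES7S replicates 1, 2 and 3 scored -4.9, 34.3 and 18.7. ΔES7S replicate 1 was thus the ΔES7S library nearest to WT. Results without it are given beside those of all 5 libraries, because it was known from earlier results of these data to change the number of calls most. Leaving out the library nearest to the other group widens the gap between the groups and narrows the spread within ΔES7S by construction, so those counts are given as values and support no result.

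With all 5 libraries, 155 of 5611 genes (2.76%) passed an adjusted p under 0.05 in edgeR's quasi-likelihood test with Benjamini-Hochberg adjustment. Of these, 67 (1.19%) were higher and 88 (1.57%) lower in ΔES7S, 36 and 59 of them by at least 2-fold, and 1727 genes had an unadjusted p under 0.05. These genes are called higher or lower below. Their adjusted p-values lay close to the threshold, from 0.0355 to 0.0498. In all 155 called genes every ΔES7S library lay on one side of both WT libraries, which was so for 26.3% (higher) and 28.5% (lower) of all genes tested. Without ΔES7S replicate 1 the same test called 2467 genes (44.1%), 1103 higher and 1364 lower, and these included all 155 in the same direction. Leaving out any of the other 4 libraries ended all calls: edgeR called 0 genes without WT replicate 2 (660 at an unadjusted p under 0.05), WT replicate 3 (766), the ΔES7S library of replicate 2 (1344) or that of replicate 3 (1034). On all 5 libraries DESeq2 called 1031 genes and limma-voom 323, and each count included all 155.

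The rises were concentrated on 1 chromosome. Of the 67 genes called higher, 52 (77.6%) lie on chromosome II, which carries 390 (6.95%) of the genes tested, and none of the 88 genes called lower lies there. Chromosomes are those given by the systematic gene names. On chromosome II 13.3% of the genes were called higher, against 0.287% (15 of 5221) on all other chromosomes and in the mitochondrial genome.

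The shift took in the whole chromosome and was not limited to the called genes. The median log2 fold change of the 390 genes was 0.51, a 1.42-fold higher level, with quartiles of 0.18 and 0.83, and 83.3% of the genes lay above 0. Relative to the WT mean, the median over these genes was 0.51, 0.52 and 0.51 in ΔES7S replicates 1, 2 and 3 and 0 in both WT libraries. On this measure the ΔES7S libraries were alike, including replicate 1. The other 15 nuclear chromosomes had medians from -0.09 to -0.01, with 42.4% to 49.4% of their genes above 0, and the lowest of their medians in any single ΔES7S library was -0.27, on chromosome VI in replicate 2. In every ΔES7S library the median of chromosome II therefore lay above that of each other nuclear chromosome. Genes of chromosome II took 6.03% and 6.04% of mRNA counts in WT and 9.01%, 8.55% and 8.81% in ΔES7S.

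**Figure D1:**
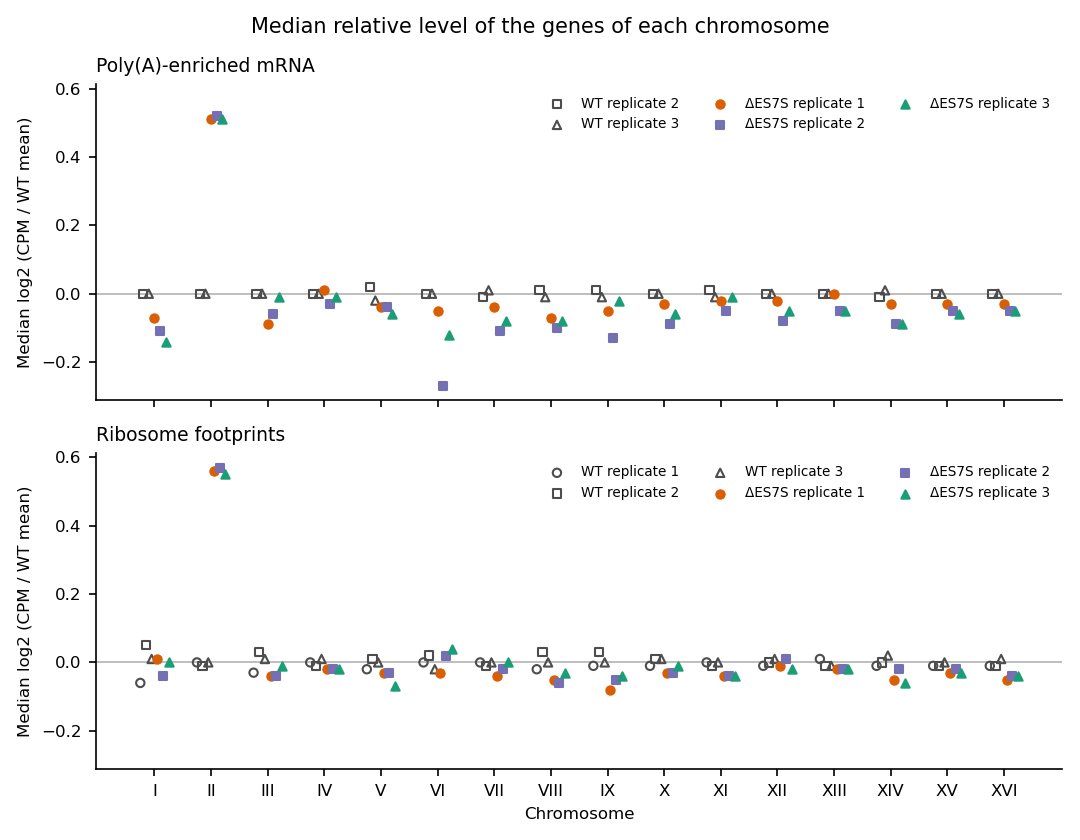
Each point is the median, over the genes tested on 1 chromosome, of the log2 ratio of a library's CPM to the WT mean, for mRNA (top) and ribosome footprints (bottom); open symbols are WT and filled symbols ΔES7S replicates. Chromosome II lies at 0.51 to 0.52 in the 3 ΔES7S mRNA libraries and at 0.55 to 0.57 in the 3 ΔES7S footprint libraries, and the other nuclear chromosomes lie near 0.

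The higher level ran from end to end. The left arm had a median log2 fold change of 0.49 (103 genes, 14 called higher) and the right arm 0.52 (287 genes, 38 called higher). In 15 blocks of 25 neighbouring genes along the chromosome, the block medians ran from 0.30 to 0.71. The 201 such blocks on other chromosomes had medians from -0.31 to 0.33. All 15 blocks of chromosome II were thus above 0, the lowest of them just under the highest block elsewhere. Single genes departed from this: 65 were below 0, 5 of them with an unadjusted p under 0.05. Among these 5 were PET112 (YBL080C), a subunit of the mitochondrial glutamyl-tRNA amidotransferase, with a log2 fold change of -1.27 ± 0.41 (SE; adjusted p = 0.104), and the small heat shock protein gene HSP26 (YBR072W) with -0.70 ± 0.25 (adjusted p = 0.12). These genes were chosen after their values were seen.

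**Figure D2:**
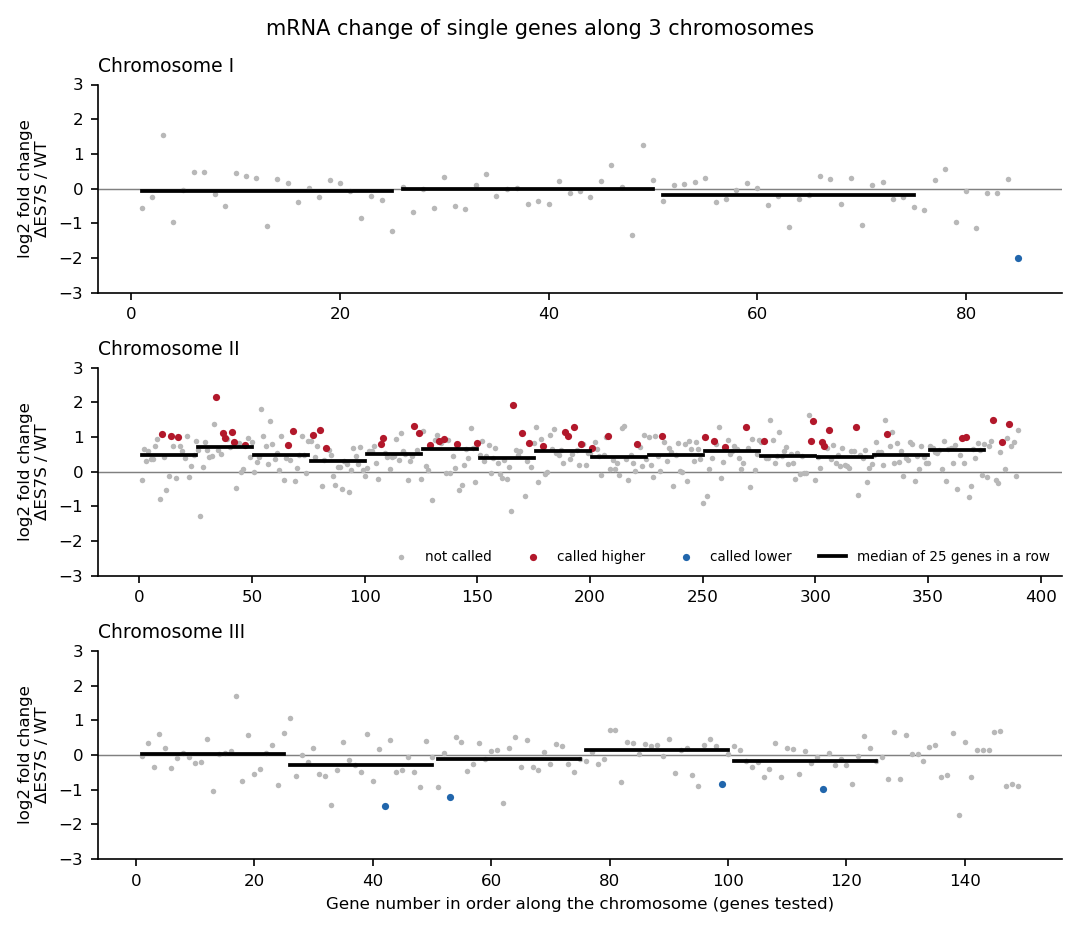
Log2 fold change (ΔES7S over WT, mRNA) of each gene tested on chromosomes I, II and III, in the order of the genes along the chromosome; coloured points are called genes and black bars are medians of 25 genes in a row. On chromosome II all 15 bars lie between 0.30 and 0.71, and on chromosomes I and III they lie on both sides of 0.

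Ribosome footprints, which come from other libraries, showed the same chromosome. Of 383 chromosome II genes tested in footprints, 261 were called higher and 3 lower. Their median log2 fold change was 0.60 (1.51-fold), and 93% lay above 0. Outside chromosome II 514 of 5059 genes were called higher in footprints, and over all genes 14.2% were. The medians in ΔES7S footprint replicates 1, 2 and 3 were 0.56, 0.57 and 0.55. Without ΔES7S replicate 1, 213 of 388 chromosome II genes were called higher in mRNA and 27 lower, where 19.7% and 24.4% of all genes were. DNA was not measured in the libraries analysed here, so the copy number of chromosome II in either group was not tested. All ΔES7S libraries share both the deletion and the higher level of chromosome II. For changes of other genes these 2 differences between the groups cannot be told apart.

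The called genes of chromosome II have many roles. YBL071C-B, an uncharacterised gene, had the largest rise, with 7.76 and 8.36 CPM in WT replicates 2 and 3 and 28.7, 51.1 and 27.8 CPM in ΔES7S replicates 1 to 3, a log2 fold change of 2.15 ± 0.31 (SE; adjusted p = 0.0355). The values of all genes below are given in this order of libraries, as CPM scaled by the normalisation factors. TIP1 (YBR067C), a cell wall mannoprotein, had 414 and 342 CPM in WT and 1048, 1703 and 1587 CPM in ΔES7S (1.94 ± 0.28, adjusted p = 0.0355). FUR4 (YBR021W), the uracil permease, had 60.1 and 52.3 CPM in WT and 110, 167 and 146 CPM in ΔES7S (1.33 ± 0.20, adjusted p = 0.0355). In all 3 genes the lowest ΔES7S library was above the highest WT library by more than the WT libraries differed.

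Genes of the cell cycle and of chromosome replication made up one group. The lists of G1, S phase and replication genes held 3 called members, and all 3 lie on chromosome II. CDC28 (YBR160W), the cyclin-dependent kinase, had 105 and 108 CPM in WT and 207, 194 and 192 CPM in ΔES7S, a log2 fold change of 0.89 ± 0.14 (adjusted p = 0.0355). MCM2 (YBL023C) and MCM7 (YBR202W), subunits of the MCM replicative helicase, rose by 1.19 ± 0.19 and 0.90 ± 0.17 on the log2 scale (adjusted p = 0.0355 and 0.0429). The 4 other MCM subunits are encoded on other chromosomes, and none was called: MCM3 had 0.62 ± 0.19 (adjusted p = 0.0947), MCM4 0.32 ± 0.16, MCM5 0.42 ± 0.14 and MCM6 0.24 ± 0.15. The kinesin gene KIP1 (1.16 ± 0.19, adjusted p = 0.0355) and SLI15, a subunit of the chromosomal passenger complex (1.02 ± 0.18, adjusted p = 0.0386), also lie on chromosome II, as do the microtubule-binding STU1 and the checkpoint kinases MEC1 and CHK1, which were called higher too. Over 48 tested genes of the G1, S phase and replication list the median log2 fold change was 0.04, against -0.01 over all genes tested, and outside chromosome II it was 0.03 with 0 of 41 genes called. Of all genes outside chromosome II 0.287% were called higher. MCM2 and MCM7 were named because they were called, so smaller values in the other MCM genes follow in part from the choice.

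Genes for partners or isozymes of some called chromosome II genes lie on other chromosomes, had smaller changes and were not called. The chromosome II genes were picked because they were called, so smaller values in their partners follow in part from the choice. Outside chromosome II 0.287% of genes were called higher. ATP1 (YBL099W), the alpha subunit of the mitochondrial ATP synthase, had 963 and 986 CPM in WT and 1857, 2173 and 2178 CPM in ΔES7S (1.09 ± 0.22, adjusted p = 0.0484), and ATP2, the beta subunit gene on chromosome X, had 0.67 ± 0.27 (adjusted p = 0.146). PRS4 (YBL068W), a subunit of phosphoribosyl-pyrophosphate synthetase, rose by 1.11 ± 0.19 (adjusted p = 0.0355), while PRS1, PRS2, PRS3 and PRS5 had 0.42, -0.02, 0.54 and 0.54. NHP6B, an HMG-box chromatin protein, rose by 1.14 ± 0.18 (adjusted p = 0.0355), and its near-identical paralog NHP6A on chromosome XVI had 0.25 ± 0.19 (adjusted p = 0.382). MAP2 (YBL091C), a methionine aminopeptidase, rose by 1.01 ± 0.20 (adjusted p = 0.0459), and MAP1 on chromosome XII had -0.82 ± 0.26 (adjusted p = 0.105). The differences between partners were not tested.

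Further chromosome II genes that rose act in the cell wall, lipids, protein turnover and transcription. CHS3 (YBR023C), the chitin synthase of the wall, went from 290 and 288 CPM to 614, 694 and 566 CPM (1.11 ± 0.18, adjusted p = 0.0355), and its activator SKT5 by 0.85 ± 0.16 (adjusted p = 0.0441). The septum chitin synthase CHS2, also on chromosome II, had 0.92 ± 0.20 (adjusted p = 0.0539), and CHS1 on chromosome XIV 0.66 ± 0.17 (adjusted p = 0.0680). UMP1, a chaperone of proteasome assembly, rose by 1.28 ± 0.22 (adjusted p = 0.0363). CDS1, which makes CDP-diacylglycerol, rose by 0.78 ± 0.13, CSG2 of sphingolipid mannosylation by 0.95 ± 0.19 and the ceramidase YPC1 by 0.90 ± 0.18 (adjusted p = 0.0355, 0.0484 and 0.0469). ROX3 of Mediator rose by 1.03 ± 0.16 and SPT7 of the SAGA complex by 0.74 ± 0.14 (adjusted p = 0.0355 and 0.0444). The acid phosphatase gene PHO5 rose by 1.30 ± 0.18, the heavy metal pump gene PCA1 by 1.39 ± 0.16, the mRNA decay gene LSM2 by 1.06 ± 0.17 and the glycosylation gene ALG1 by 1.04 ± 0.16 (each with an adjusted p of 0.0355). COS111 rose as well. PHO5 belongs to a family of similar genes, and how reads that fit several genes were counted is not given in the sources used here. Of 55 gene lists, 18 had a member called higher, and in 4 of them a called member lay outside chromosome II.

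On other chromosomes 15 genes (0.287% of 5221) were called higher, among them a formate dehydrogenase and 2 genes of iron uptake. With the chromosome II genes left out before the fit, which was tried after seeing the data, 2 of these 15 were called. FDH1 (YOR388C), a formate dehydrogenase, had the largest rise, from 2.88 and 3.69 CPM in WT to 12.3, 19.5 and 15.9 CPM in ΔES7S (2.27 ± 0.29, adjusted p = 0.0355). FIT3 (YOR383C) and FIT2 (YOR382W) encode wall mannoproteins that help to retain siderophore iron. FIT3 had 24.6 and 26.8 CPM in WT and 78.9, 116 and 97.4 CPM in ΔES7S (1.92 ± 0.20, adjusted p = 0.0355). FIT2 had 30.9 and 27.5 CPM in WT and 55.5, 88.7 and 87.5 CPM in ΔES7S (1.40 ± 0.23, adjusted p = 0.0355). ΔES7S replicate 1 was the lowest of the ΔES7S libraries in each of these genes, and it was still above both WT libraries. FIT1, the family's gene on chromosome IV, had 12 and 13.2 CPM in WT and 14, 11.9 and 12.2 CPM in ΔES7S, with 0.01 ± 0.20 (adjusted p = 0.974). FIT2, FIT3, TIP1 and PHO5 were the 4 genes called higher of 56 in the list of secreted and GPI-anchored proteins, with 0 lower. That list had a median of 0.35, with 43 genes above 0, and 1.19% of all genes tested were called higher.

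The iron and copper list as a whole moved little. Of its 43 tested members these FIT genes were the only 2 called, its median log2 fold change was 0.13, and AFT1 and AFT2, the activators of the iron genes, had -0.12 ± 0.14 and -0.34 ± 0.24 (adjusted p = 0.563 and 0.342). Without ΔES7S replicate 1, 14 of the 43 were called higher and 6 lower, against 19.7% and 24.4% of all genes.

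The other rises outside chromosome II were RIM4 (1.48 ± 0.25), an RNA-binding protein of meiosis, and SPO22 (1.02 ± 0.20), a meiotic synapsis gene. CSS1 (1.58 ± 0.29) encodes a wall protein. RPN8 (YOR261C), a lid subunit of the proteasome, had 39.5 and 53.2 CPM in WT and 94.2, 89.3 and 101 CPM in ΔES7S (1.03 ± 0.17, adjusted p = 0.0355). REH1, a factor of late 60S subunit maturation in the cytoplasm, rose by 0.89 ± 0.16 (adjusted p = 0.0384). The fructose-2,6-bisphosphatase FBP26 rose by 0.84 ± 0.14, the ER mannosidase MNS1 by 0.76 ± 0.14 and EPL1 of the NuA4 acetyltransferase by 0.99 ± 0.18. PCD1, a nudix hydrolase (1.09 ± 0.17), and its neighbour YLR152C (1.04 ± 0.19) rose alike, as did the uncharacterised YOR292C (0.99 ± 0.16) and YNR065C (0.82 ± 0.16). The proteasome list had 2 of 38 genes called, RPN8 and UMP1 on chromosome II, and a median of -0.04, and the gene of its activator RPN4 had 0.00 ± 0.17 (adjusted p = 0.989). Of the list of 22 meiosis and sporulation genes none was called, and its median was -0.16. FDH1 has a near-identical copy and CSS1 belongs to a family, so that reads may be shared.

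**Figure D3:**
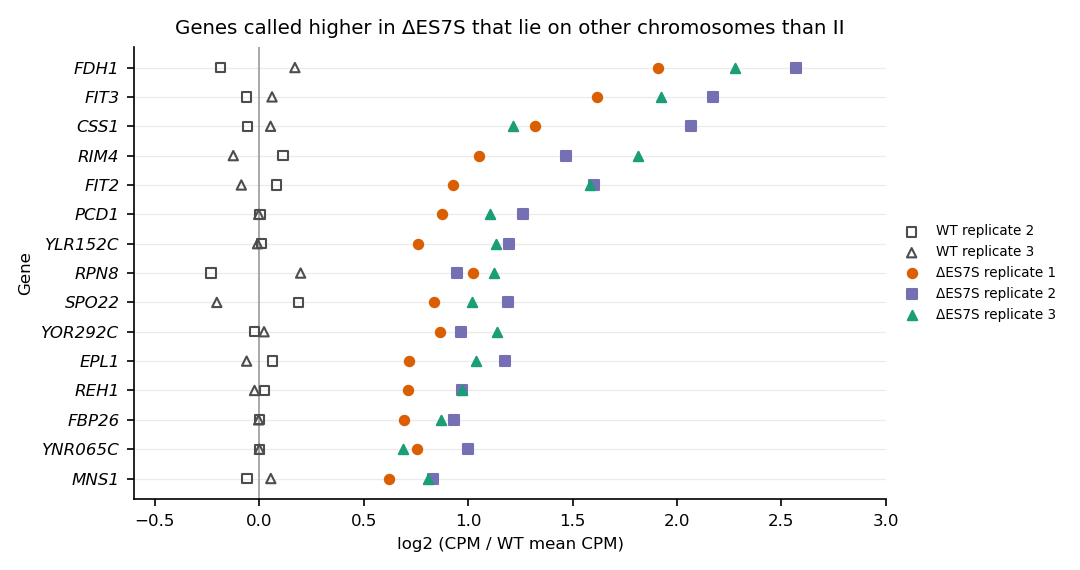
CPM of each mRNA library relative to the WT mean, on a log2 scale, for the 15 genes called higher on chromosomes other than II. In each gene the 3 ΔES7S libraries lie above both WT libraries, and replicate 1 is the lowest ΔES7S library in most of them.

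Nuclear genes for mitochondrial proteins were the largest group among the falls. Of the 88 genes called lower, 22 are in the list of mitochondrial ribosomal proteins (77 tested) and 24 in other mitochondrial lists, whose sizes are given below. The other 42 are in none of the 8 mitochondrial lists, and some of these 42 are mitochondrial too, as named below. Of all genes tested 1.57% were called lower. Among genes outside chromosome II 1.69% were called lower. With the chromosome II genes left out before the fit, which was tried after seeing the data, 21 genes were called, 2 higher and 19 lower, all of them among the 155.

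Genes that express the mitochondrial genome, apart from the ribosome itself, were lower as a list. Of 66 tested, 12 were called lower and none higher, 58 had a log2 fold change below 0, and the median was -0.58, against -0.01 over all genes tested. In mean log2 CPM relative to WT the list stood at -0.50, -0.77 and -0.63 in ΔES7S replicates 1, 2 and 3 and at 0.07 and -0.07 in WT. All 3 ΔES7S libraries were lower by several times the distance between the WT libraries. Without ΔES7S replicate 1, 41 of the 66 were called lower and 1 higher, where 24.4% and 19.7% of all genes were, with a median of -0.63. Across the other fits the median ran from -0.76 to -0.50.

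OXA1 (YER154W), the insertase that places mitochondrially made proteins in the inner membrane, had the largest called fall of the list. It had 149 and 144 CPM in WT and 64.5, 31.8 and 35.9 CPM in ΔES7S, a log2 fold change of -1.73 ± 0.29 (3.32-fold lower, adjusted p = 0.0355). CCM1 (YGR150C), a pentatricopeptide repeat protein needed for mitochondrial rRNA, had 43.7 and 43.0 CPM in WT and 22.3, 11 and 14 CPM in ΔES7S (-1.45 ± 0.28, adjusted p = 0.0459). ΔES7S replicate 1 was the highest ΔES7S library in both genes and still below WT. MRM1 (YOR201C), a methyltransferase of the large mitochondrial rRNA, fell by 1.12 on the log2 scale (SE 0.18, adjusted p = 0.0355), from 86.0 and 85.5 CPM to 48.8, 35.3 and 34.5 CPM.

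Of the 13 mitochondrial tRNA synthetases in this list, a subset picked out after the values were seen, 6 were called lower and none higher: those for tyrosine (MSY1, -1.21 ± 0.19), serine (DIA4, -1.07 ± 0.18), arginine (MSR1, -1.06 ± 0.20), leucine (NAM2, -0.96 ± 0.15), isoleucine (ISM1, -0.91 ± 0.17) and threonine (MST1, -0.83 ± 0.16). The other 7 were not called and had log2 fold changes from -0.83 to -0.12, with SLM5, for asparagine, the nearest to 0 (-0.12 ± 0.19, adjusted p = 0.695). Of the 22 genes in the other list of aminoacyl-tRNA synthetases, most of which act in the cytoplasm, none was called, and the median was 0.09; the difference between the lists was not tested. The lowest of them was GRS2, a glycyl-tRNA synthetase gene, with 36.7 and 33.6 CPM in WT and 13.1, 3.73 and 7.22 CPM in ΔES7S (-2.11 ± 0.43, adjusted p = 0.0520). Also called were MTO1, which modifies mitochondrial tRNAs (-0.95 ± 0.15), RMD9, which binds mitochondrial mRNAs (-0.83 ± 0.13), and PET494, the translational activator of COX3 (-0.97 ± 0.18). Those beyond the 4 lowest p-values of the list were chosen after their values were seen.

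Assembly factors of the respiratory complexes were lower in the same way. Of 51 tested, 8 were called lower and none higher, 41 were below 0, and the median was -0.59, from -0.80 to -0.49 in the other fits. Relative to WT the list stood at -0.50, -0.61 and -0.41 in ΔES7S replicates 1 to 3 and at 0.05 and -0.05 in WT. PET117 (YER058W), an assembly factor of cytochrome c oxidase, had 23.2 and 19.6 CPM in WT and 6.05, 5.12 and 5.2 CPM in ΔES7S (-1.96 ± 0.21, 3.90-fold lower, adjusted p = 0.0355). SDH7 (YDR511W), an assembly factor of succinate dehydrogenase, had 58.2 and 59.7 CPM in WT and 25.9, 15.2 and 19.0 CPM in ΔES7S (-1.55 ± 0.23, adjusted p = 0.0355). In PET117 the ΔES7S libraries differed among themselves by less than 1 CPM, and in SDH7 replicate 1 was the highest of them.

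Copper delivery to cytochrome c oxidase was represented by COX17 (YLL009C), the copper chaperone, with 38.1 and 36.1 CPM in WT and 17.0, 13.3 and 19.0 CPM in ΔES7S (-1.17 ± 0.20, adjusted p = 0.0355), and by COX23, a related twin CX9C protein, with -1.36 ± 0.19 (adjusted p = 0.0355). Their relative CMC4 also fell (-1.31 ± 0.22, adjusted p = 0.0355). Others of this protein family were not called: COX19 had -0.16 ± 0.18 (adjusted p = 0.557), CMC1 -0.26 ± 0.28 (adjusted p = 0.548), and CMC2, on chromosome II, 0.82 ± 0.19 (adjusted p = 0.0591). Further called assembly factors were COX10, which makes heme O (-1.13 ± 0.19), COX14 (-1.11 ± 0.17) and SHY1 (-0.89 ± 0.17), which act in cytochrome c oxidase assembly, and BCS1, which inserts the Rieske protein into complex III (-0.86 ± 0.16).

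The subunits that these factors assemble did not move with them. Of 44 tested nuclear genes for subunits of the respiratory chain and ATP synthase none was called lower and 1, ATP1 on chromosome II, was called higher, and the median was 0.27, from 0.07 to 0.31 in the other fits. Outside chromosome II the median was also 0.27, with none of 41 genes called. Relative to WT the list stood at 0.09, 0.26 and 0.32 in ΔES7S replicates 1 to 3. Without ΔES7S replicate 1, 18 subunit genes were called higher and 2 lower, where 19.7% and 24.4% of all genes were. The transcription factor genes HAP4 and HAP1, whose products drive respiratory genes, had 0.28 ± 0.16 and 0.03 ± 0.24 (adjusted p = 0.263 and 0.937). PUF3, whose product binds many mRNAs for mitochondrial proteins, had 64.8 and 62.7 CPM in WT and 67.1, 76.9 and 87.6 CPM in ΔES7S (0.27 ± 0.16, adjusted p = 0.254).

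Other mitochondrial lists lay between. The protein import list had 1 of 44 genes called, TOM5 (YPR133W-A), a small subunit of the outer membrane translocase, with 72.2 and 73.9 CPM in WT and 40.2, 40.1 and 43.1 CPM in ΔES7S (-0.83 ± 0.13, adjusted p = 0.0355). Its median was -0.22, from -0.42 to -0.17 in the other fits. The iron-sulfur cluster list had 3 of 28 called lower: IBA57, which acts late in cluster assembly (-1.87 ± 0.36, adjusted p = 0.0444), the cochaperone JAC1 (-1.03 ± 0.18, adjusted p = 0.0359) and the ferredoxin YAH1 (-0.70 ± 0.13, adjusted p = 0.0426). Its median was -0.03, close to that of all genes. IBA57 varied most, with 64.2 and 39.2 CPM in WT and 16.6, 7.84 and 17.9 CPM in ΔES7S. In the carrier list the citrate carrier CTP1 on chromosome II was called higher (0.87 ± 0.17, adjusted p = 0.0444) and none of 30 lower. Of 36 TCA and glyoxylate cycle genes none was called, and the median was 0.10.

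**Figure D4:**
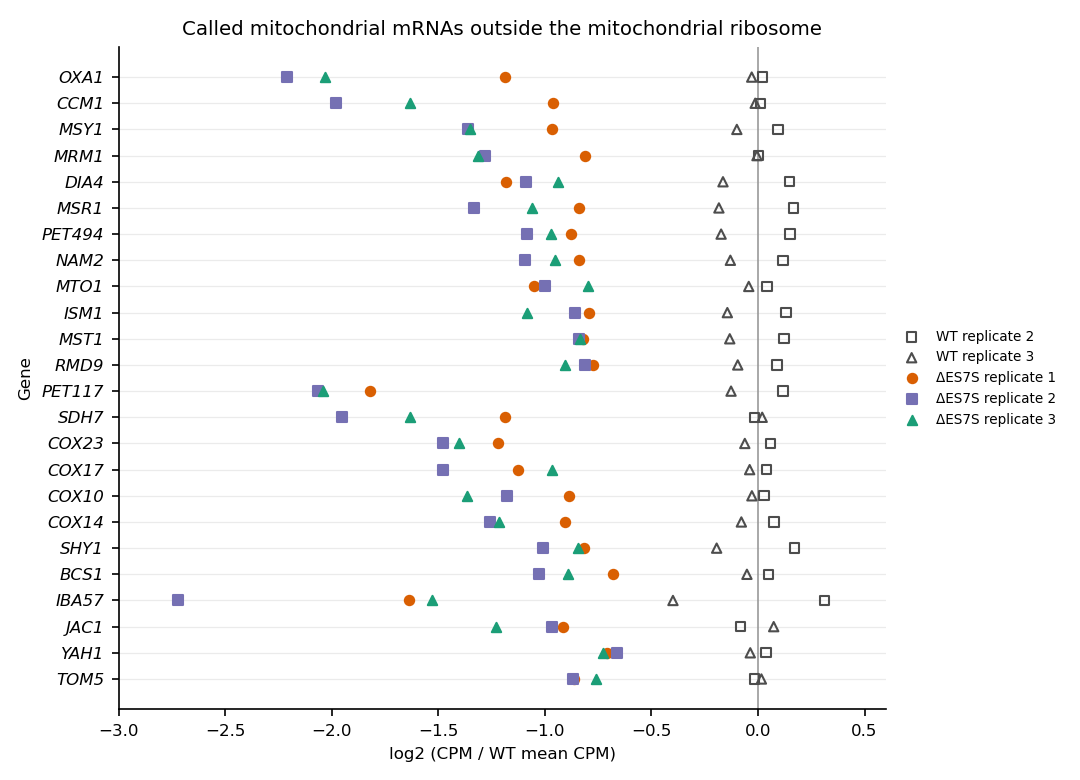
CPM of each mRNA library relative to the WT mean, on a log2 scale, for the 24 called genes of the lists of mitochondrial gene expression (OXA1 to RMD9), respiratory assembly (PET117 to BCS1), iron-sulfur clusters (IBA57 to YAH1) and protein import (TOM5). All ΔES7S libraries lie below both WT libraries, and replicate 1 is the nearest to WT in most genes.

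The members of these lists that lie on chromosome II stood apart from the rest. The lists of mitochondrial ribosomal proteins, mitochondrial gene expression and respiratory assembly together have 15 genes tested on chromosome II, while 178 lie elsewhere and had a median of -0.62 on the log2 scale, with 42 called lower. The 15 on chromosome II had a median of -0.05, and none was called lower. The difference between these medians is about that between chromosome II and the rest of the genome, 0.55, but it rests on 15 genes and was not tested. In footprints the 15 had a median of 0.58 and 177 of the others -0.15.

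Several further mitochondrial genes were called lower that are in no list, chosen for naming by size of change or after their values were seen. DPC29 (YGR021W), a mitochondrial protein, had 28.5 and 29.8 CPM in WT and 8.42, 3.03 and 6.64 CPM in ΔES7S (-2.25 ± 0.37, adjusted p = 0.0355). MRX15, a protein linked to the mitochondrial ribosome, fell by 1.46 on the log2 scale (SE 0.28, adjusted p = 0.0444). MHR1, of mitochondrial DNA recombination, had -1.31 ± 0.20, PGS1, of cardiolipin synthesis, -1.22 ± 0.22, and MAE1, the mitochondrial malic enzyme, -1.31 ± 0.26. MAM33, an acidic matrix protein, had 130 and 124 CPM in WT and 57.3, 52.0 and 63.2 CPM in ΔES7S (-1.14 ± 0.14, adjusted p = 0.0355), and the matrix protease CYM1 -1.04 ± 0.16.

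Enzymes of glycerol and glucose metabolism were among the other falls, mostly as single isozymes. GPP1 (YIL053W), the main glycerol-3-phosphatase, had 546 and 534 CPM in WT and 193, 147 and 140 CPM in ΔES7S, a log2 fold change of -1.76 ± 0.19 (3.38-fold lower, adjusted p = 0.0355). Its paralog GPP2 had 161 and 152 CPM in WT and 113, 55.1 and 77.9 CPM in ΔES7S (-0.93 ± 0.27, adjusted p = 0.0878). All ΔES7S libraries were below WT in both genes, by more in GPP1. TDH2 (YJR009C), one of 3 glyceraldehyde-3-phosphate dehydrogenase genes, had 465 and 296 CPM in WT and 110, 134 and 190 CPM in ΔES7S (-1.40 ± 0.28, adjusted p = 0.0498). TDH1 had -1.27 ± 0.67 (adjusted p = 0.228) with groups that overlapped, and TDH3 0.20 ± 0.34 (adjusted p = 0.708). The TDH genes are near-identical, so their reads may be split between them. TDH2 was the only one of 35 glycolysis and fermentation genes called, and the list's median was -0.08, or -0.23 without chromosome II. The trehalose, glycogen and glycerol list had GPP1 alone called of 34 genes and a median of 0.08.

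RPS9A (YPL081W) was the only cytosolic ribosomal protein gene called. It had 135 and 160 CPM in WT and 46.6, 25.6 and 29.2 CPM in ΔES7S, a log2 fold change of -2.12 ± 0.25 (4.33-fold lower, adjusted p = 0.0355). RPS9B, its paralog on chromosome II and the more counted copy, had 1225 and 1591 CPM in WT and 1830, 2266 and 1685 CPM in ΔES7S (0.45 ± 0.25, adjusted p = 0.242). The fitted changes of the copies had opposite signs, but RPS9B was not called. Its value was near the medians of the 40S list (0.45) and of chromosome II (0.51). Reads of near-identical stretches may be shared between the copies. The other ribosomal protein genes were above 0 as a group without passing the test: the median was 0.45 for 57 genes of the 40S subunit and 0.45 for 81 of the 60S subunit, with 48 and 66 of them above 0. These medians depended on single libraries: leaving out 1 gave 0.27 to 0.63 for the 40S list and 0.26 to 0.65 for the 60S list, with the lowest values without ΔES7S replicate 2 (0.27 and 0.26; also 0.27 for the 40S list without WT replicate 2) and the highest without WT replicate 3. Scaled by library totals alone, each median was 0.25. Genes of the 40S list took 4.29% and 5.31% of counts in WT and 5.68%, 6.51% and 5.14% in ΔES7S, so that the groups overlapped on that share. Genes of the 60S list took 6.45% and 7.79% in WT and 8.98%, 10.3% and 8.11% in ΔES7S, where the groups did not overlap.

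Amino acid, nucleotide and cofactor genes gave single falls. ARG3 (YJL088W), the ornithine carbamoyltransferase of arginine synthesis, had 61.5 and 65.6 CPM in WT and 33.4, 18.8 and 29.4 CPM in ΔES7S (-1.22 ± 0.24, adjusted p = 0.0453). URA6, the uridylate kinase, had 150 and 143 CPM in WT and 79.5, 64.1 and 64.1 CPM in ΔES7S (-1.08 ± 0.15, adjusted p = 0.0355). HEM2, the aminolevulinate dehydratase of heme synthesis, had -0.82 ± 0.15 (adjusted p = 0.0425). UTR1, an NAD kinase, and NRT1, a nicotinamide riboside transporter, had -1.08 ± 0.14 and -1.10 ± 0.18 (each with an adjusted p of 0.0355). Of 66 targets of the amino acid regulator Gcn4, ARG3 and LEU2 were called and the median was -0.05. GCN4 itself had 2203 and 2366 CPM in WT and 2777, 3646 and 2973 CPM in ΔES7S (0.46 ± 0.24, adjusted p = 0.228), above WT in every ΔES7S library. Of 34 methionine and sulfur genes none was called and the median was -0.23, with MET3, the ATP sulfurylase, at -1.23 ± 0.25 (adjusted p = 0.0514).

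Membrane, signalling and nuclear genes were also represented. ULI1 (YFR026C), a gene induced by the unfolded protein response, had the largest fall of all called genes, with 15.9 and 13.0 CPM in WT and 3.72, 2.15 and 1.56 CPM in ΔES7S (-2.51 ± 0.36, 5.68-fold lower, adjusted p = 0.0355). It was the only 1 of 30 genes of ER folding and the unfolded protein response called, and the median of that list was -0.12. COS10, of a family of similar subtelomeric genes, fell by 2.29 on the log2 scale (SE 0.35), NPP2, a nucleotide pyrophosphatase, by 1.68 (SE 0.30) and ICY1, a gene of unknown function, by 1.40 (SE 0.19; adjusted p = 0.0355, 0.04 and 0.0355). The uncharacterised YEL023C had -1.42 ± 0.24 (adjusted p = 0.0355). SLC1, a lysophosphatidic acid acyltransferase, had -0.95 ± 0.18, TRK2, a potassium transporter, -0.69 ± 0.13, and CWC27 of the spliceosome -1.02 ± 0.19. The kinetochore gene ASK1 of the DASH complex had -1.32 ± 0.25 (adjusted p = 0.0441).

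SST2 (YLR452C), which turns off the G protein of the pheromone pathway, had 55.1 and 55.2 CPM in WT and 30.5, 21.5 and 26.2 CPM in ΔES7S (-1.08 ± 0.18, adjusted p = 0.0355). It was the only 1 of 23 haploid mating genes called. Of 7 a-cell genes none was called: BAR1, the pheromone protease, and AGA2, an agglutinin subunit, had -1.06 ± 0.27 and -1.03 ± 0.27 (adjusted p = 0.0681 and 0.0685), and STE2, the alpha factor receptor of a cells, had -0.21 ± 0.14 with 195 to 235 CPM in the 5 libraries. The 7 a-cell genes had 4 below 0 and 3 above, with STE6 at 0.18, ASG7 at 0.19 and MFA2 at 0.22. None of 4 alpha-cell genes tested was called, and all 4 were above 0 with a median of 0.48. AFB1 had 0.69 ± 0.21 (adjusted p = 0.0986), STE3 0.62 ± 0.33 and SAG1 0.22 ± 0.16. MF(ALPHA)1, the pheromone gene of alpha cells, had 0.34 ± 0.57 at 0.322 to 1.03 CPM in all libraries of both groups.

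Genes often used as selection markers were lower as a list. Of 10 tested, 1 was called, LEU2 (YCL018W), with 25 and 24.9 CPM in WT and 12.1, 6.26 and 8.49 CPM in ΔES7S (-1.46 ± 0.28, adjusted p = 0.0444). All 10 had a log2 fold change below 0, with a median of -0.70. URA3 (YEL021W) and TRP1 (YDR007W) were among the 5 genes with the most mRNA counts, beside PDC1, CCW12 and SED1. URA3 had 21361 and 19679 CPM in WT and 9339, 8271 and 8124 CPM in ΔES7S, a log2 fold change of -1.26 ± 0.26 (adjusted p = 0.0524). TRP1 had 14767 and 13756 CPM in WT and 9653, 11975 and 12281 CPM in ΔES7S (-0.34 ± 0.27, adjusted p = 0.412). Both were below WT in every ΔES7S library, by more in URA3. ADE2 had 66.4 and 63.1 CPM in WT and 27.5, 6.2 and 8.2 CPM in ΔES7S (-2.19 ± 0.56, adjusted p = 0.0673), and HIS4 -1.45 ± 0.39 (adjusted p = 0.0745). Which markers the strains carry, and on which plasmids, is not given in the sources used here.

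Many lists did not stand out in mRNA. None of the 45 stress response genes, 42 chaperone genes, 30 ergosterol genes, 72 assembly factors of the 40S subunit, 27 hexose transport genes or 43 peroxisome genes was called, and their medians were -0.11, -0.09, -0.13, -0.12, -0.06 and -0.09. In all, 22 of 55 lists had no member called. Of 56 transcription factor and signalling genes chosen as regulators none was called, and their median was -0.01. The lowest of them was MIG1, the glucose repressor, with 47.3 and 55.2 CPM in WT and 21.6, 3.54 and 6.58 CPM in ΔES7S (-2.25 ± 0.62, adjusted p = 0.0797). HSF1, the heat shock factor, had 135 and 113 CPM in WT and 74.5, 45.0 and 57.5 CPM in ΔES7S (-1.06 ± 0.22, adjusted p = 0.0508), and SWI4, of the G1 transcription factor SBF, 0.63 ± 0.14 (adjusted p = 0.0539). In each of these 3 genes all ΔES7S libraries were on one side of WT. Of all genes tested, 26.3% were apart in this way with ΔES7S higher and a further 28.5% with ΔES7S lower.

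**Figure D5:**
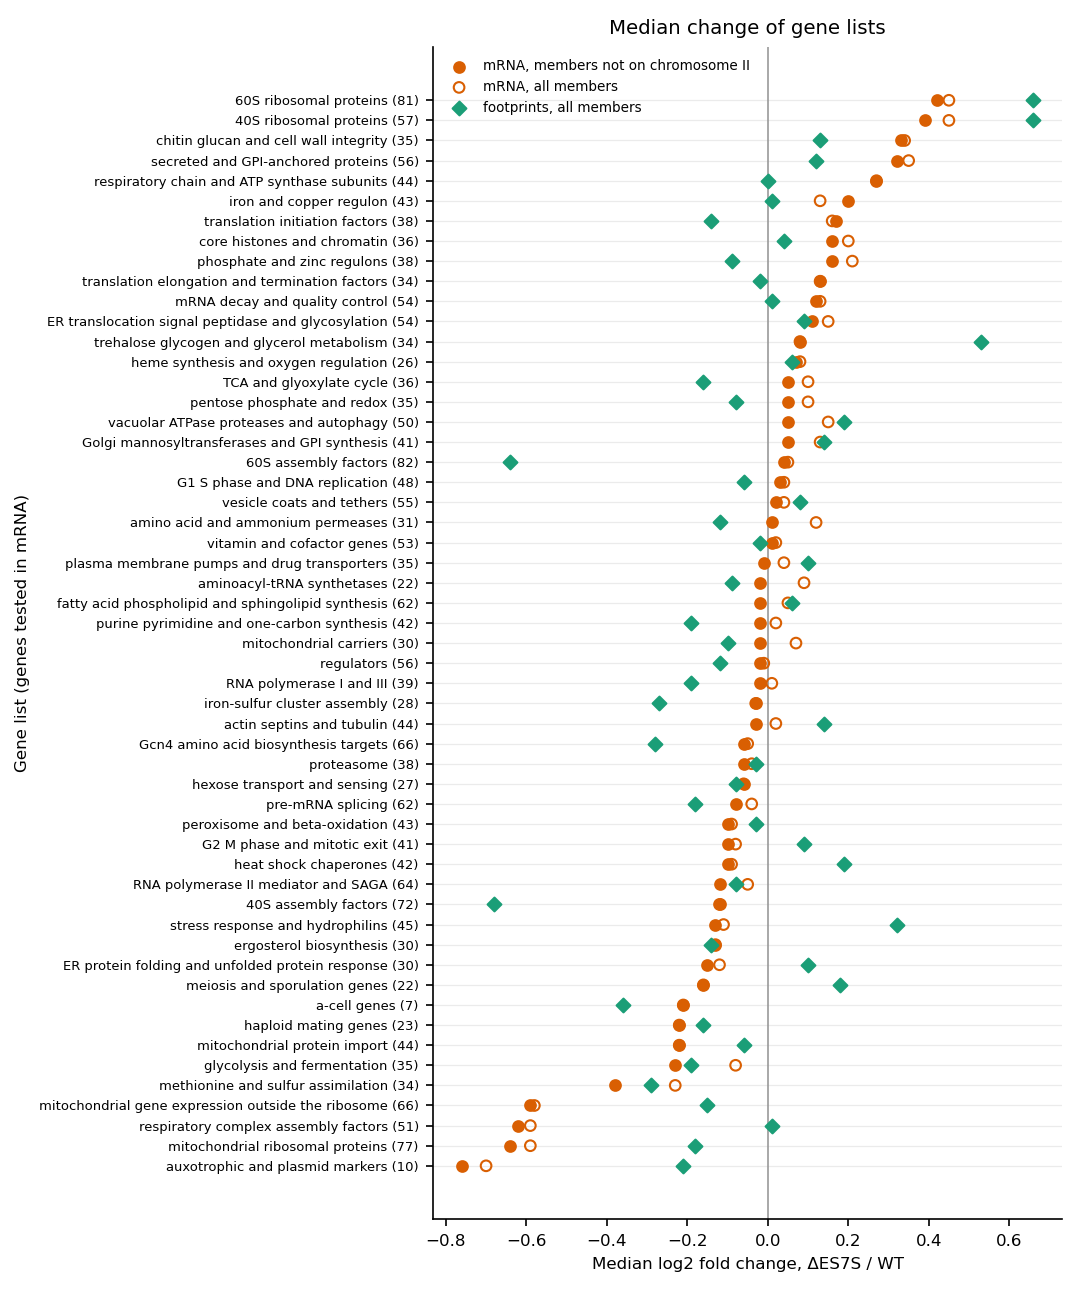
Median log2 fold change (ΔES7S over WT) of each gene list with at least 7 genes tested, in mRNA with all members (open circles), in mRNA without members on chromosome II (filled circles) and in footprints (diamonds). The mitochondrial expression, assembly and ribosomal protein lists lie at -0.59 to -0.58 in mRNA with all members and at -0.18 to 0.01 in footprints.

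The footprint libraries give a second readout of the genes called in mRNA. Of 67 rises 51 were also called higher in footprints and none lower, with medians of 1.02 in mRNA and 0.73 in footprints. For the 15 rises outside chromosome II these numbers were 10 and 0, with FDH1 at 1.85 (adjusted p = 0.0104), FIT3 at 1.37 (adjusted p = 0.0385) and FIT2 at -0.27 (adjusted p = 0.381). Of 87 falls with a footprint value 26 were called lower and 1 higher, 78 had the same sign, and the medians were -1.11 in mRNA and -0.26 in footprints. Since the genes were chosen for their change in mRNA, a smaller value in another readout follows in part from the choice, and the difference was not tested. Over all genes 14.2% were called higher and 12.6% lower in footprints.

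Single genes differed in how their mRNA and footprint changes compared. SST2 had a log2 fold change of -1.08 in mRNA and -2.85 in footprints (adjusted p = 0.000235), GPP1 had -1.76 and -1.21 (adjusted p = 0.000366), and TDH2 -1.40 and -1.36 (adjusted p = 0.000235). ULI1 and COS10 were also called lower in both, with footprint values of -2.63 and -1.83. PET117 was called lower in mRNA and higher in footprints (0.42, adjusted p = 0.0365), and DPC29, with -2.25 in mRNA, had -0.05 in footprints (adjusted p = 0.835). Of the mitochondrial expression list 13 genes were called lower and 6 higher in footprints, and of the assembly list 2 and 6, with list medians of -0.15 and 0.01. Of the 40S assembly factors, 0 of 72 were called in mRNA, while 57 were called lower in footprints, where the list median was -0.68.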

How the data were processed

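Poly(A)-enriched, randomly fragmented mRNA and ribosome footprints were sequenced from yeast with plasmid-borne WT or ΔES7S rRNA; no molecular identifiers or spike-in are named in the labels. Each library's deposited table gives whole-number read counts by gene, with no normalisation by the authors, per the file headers and values. FastQC 0.11.7 and Bowtie 1.2.3 are named in the submitters' processing notes. The sources used here do not give the genome build, annotation, counting tool, strand setting or treatment of multi-mapping reads. WT mRNA replicate 1 was not analysed here. Genes missing from a library's table were set to 0. Symbols came from a RefSeq R64 gene table, which matched 5752 of 5756 genes, and chromosome and arm from the systematic name.

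The 5 mRNA libraries were fitted with edgeR 4.0.16 under R 4.3.3 (filterByExpr, TMM, glmQLFit with robust = TRUE, glmQLFTest, two-sided, Benjamini-Hochberg over 5611 genes). The 6 footprint libraries were fitted alone in the same way. SE is |log2 fold change|/√F. Printed CPM include the TMM factors (0.8345 to 1.0996). Levels are therefore relative within each library, and fewer cells and less RNA per cell cannot be told apart. The fit was tested on simulated counts. Libraries of a group differed by a chi-square per degree of freedom of 106 to 241, so none is a duplicate. Counting error is small at these depths and does not cover PCR copies.

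The genes to describe, 55 gene lists, the tests and the alternatives were chosen with earlier results of these data known, so lists are described by counts and medians with no test. The rule for naming took the 15 rises and 15 falls of largest size among called genes (mean log2 CPM 3 or more, groups apart), up to 4 called members per list (or 1 uncalled), the regulator, mating and marker lists, the 5 genes with the highest counts, and paralogs or partner subunits; other called genes were named after their values were seen. Alternatives were DESeq2 1.42.0, limma-voom (limma 3.58.1), RLE, upper-quartile and total-count scaling, other filters, a joint fit with footprints, a replicate block and leaving out each library. Coding length was not run, because the tables name no genome build.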

Additional observations from a re-analysis of the deposited data

How the results depend on the processing

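The count of called genes depended on the fit, and no called gene changed sign in any alternative. The 155 calls became 164 with RLE scaling, 134 with a filter at 10 CPM, 162 without robust fitting, 170 with no filter and 118 with upper-quartile scaling. They became 323 with limma-voom, 1031 with DESeq2, 1463 in a joint fit with footprints, 21 without chromosome II genes and 0 with library totals alone (1382 at an unadjusted p under 0.05), which move the median of all genes from -0.01 to -0.20. Leaving out 1 library gave 0 to 2467 calls, with 2467 without ΔES7S replicate 1 and 0 in each of the 4 other cases; where WT has 1 library, it is assumed to vary like ΔES7S.

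Without ΔES7S replicate 1, the other fits gave 1844 to 2596 calls, and leaving out a further library 1184 to 3000; 1103 were higher and 1364 lower, but 391 and 1754 with library totals, with an all-gene median of -0.29. Replicate numbers 2 and 3 are shared by the groups, and the deviations of same-numbered libraries correlated at -0.13 and -0.46. WT replicate 2 with ΔES7S replicate 3 gave 0.46, and WT replicate 3 with ΔES7S replicate 2 gave 0.13. The deviations of 2 WT libraries mirror each other, so these values cannot decide whether the numbers pair the samples. A replicate block called 1924 genes, 154 of the 155 among them. Chromosome II lay 0.55 (log2) above the other nuclear genes, and 0.54 to 0.57 in all alternatives, 0.57 with the replicate block. The 77 called genes also called in footprints in the same direction were 61 to 80 when leaving out a footprint library, 79 with DESeq2 and 75 with a replicate block. Coding length was not run.

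With 2 WT libraries and adjusted p-values near the threshold, a gene that was not called is not shown to be unchanged.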

Other observations

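Some of the called genes outside chromosome II are neighbours, judged by the order of their systematic names; these pairs were picked after their values were seen, and no test was run on them. FIT2 and FIT3 are adjacent on chromosome XV, and FDH1, the largest rise outside chromosome II, lies a few genes further towards the same end. Their neighbours did not all move: FRE5, next to FIT3, had a log2 fold change of 0.95 ± 0.52 at 0.396 to 1.44 CPM (adjusted p = 0.243), and FRE3, a ferric reductase gene on the other side of FIT2, had -0.30 ± 0.23 (adjusted p = 0.400). PCD1 and YLR152C on chromosome XII are adjacent, with changes of 1.09 and 1.04. Among the falls, CMC4 and ICY1 on chromosome XIII are adjacent with -1.31 and -1.40, as are MRPL40 and COX10 on chromosome XVI with -0.84 and -1.13.

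Genes of the mitochondrial genome, whose transcripts mostly lack long poly(A) tails in yeast, took 0.00829% to 0.0122% of mRNA counts. The 9 tested had a median log2 fold change of 0.08 with none called, at -0.22, 0.22 and 0.18 in ΔES7S replicates 1 to 3 and -0.09 and 0.09 in WT.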
